A study of Mus musculus with 6 samples.

Results

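The hemoglobin and red cell genes were 6 genes of 53819 listed in the count table, taken by symbol: the adult alpha globins *Hba-a1* and *Hba-a2*, the adult beta globins *Hbb-bs* and *Hbb-bt*, *Alas2* and *Slc4a1*. They were read in RNA of healing flexor digitorum longus (FDL) tendons as a measure of red cell transcripts in each library. DTRScxLin mice (Scx-Cre+; DTR F/+), in which a non-inducible Scx-Cre switches on the diphtheria toxin receptor in cells of the *Scx* lineage, were compared with their WT littermates (Scx-Cre-; DTR F/+), which carry the same floxed allele without Cre. Both groups of male and female mice had FDL transection and repair at 10 to 12 weeks of age, received DT in both genotypes (100 ng a day on 5 days, D14 to D18) and were harvested at D28 post-surgery, which the sample titles call D28 post-depletion. Each group held 3 libraries, each from 1 tendon of a separate biological sample.

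Hemoglobin is a tetramer of alpha and beta chains that each hold heme, and it fills the circulating red cell. Mouse red cells lose their nucleus as they mature, and the youngest circulating red cells, the reticulocytes, still hold messenger RNA, mostly globin. Red cell transcripts in a solid tissue can come from blood in its vessels, from blood left by the dissection or from bleeding into the tissue, and bulk RNA cannot tell fewer cells of a type from less RNA per cell.

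The pairs of globin paralogues carry nearly the same coding sequence, which bears on how their reads can be told apart. The coding sequences below come from GENCODE vM21 transcripts, positions are counted from 1 at the A of the start codon, and the capital marks the single base at which the paralogues differ, in a stretch from position 351 to 411 of the alpha and from 387 to 444 of the beta globins.
Hba-a1: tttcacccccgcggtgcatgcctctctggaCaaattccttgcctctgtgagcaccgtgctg
Hba-a2: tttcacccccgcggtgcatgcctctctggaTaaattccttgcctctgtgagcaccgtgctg
Hbb-bs: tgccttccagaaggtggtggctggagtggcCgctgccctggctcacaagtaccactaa
Hbb-bt: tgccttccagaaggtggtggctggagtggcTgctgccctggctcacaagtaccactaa

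From *Hba-a1* to *Hba-a2* the single substitution in 429 coding bases is C381T, and from *Hbb-bs* to *Hbb-bt* the single one in 444 coding bases is C417T. Of all stretches of 50 bases in the *Hba-a1* coding sequence, 87.1% also occur in *Hba-a2*, and the same share for *Hbb-bs* in *Hbb-bt* is 92.9%. Over whole transcripts, untranslated regions included, 67.5% of the *Hba-a1* stretches and 65.8% of the *Hbb-bs* stretches are shared with the paralogue. The split of counts within each pair is therefore uncertain. The alpha and the beta sums do not depend on that split. They would still be too low if reads matching both paralogues were dropped, and the treatment of such reads is not given. The globin levels, shares and ratios below rest on the counts as deposited.

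The promoters are shown as background for 5 of the 6 genes, since no promoter entry was found for *Slc4a1*. A link between promoter words and the levels of these genes was not tested. RefSeq gave the 250 bases before the transcription start for those 5 genes (GRCm38.p6). Capitals mark matches to the word AGATAA, the variant AGATAG, the related TGATAA or its variant TGATAG (all bound by GATA factors such as GATA1, the master regulator of red cell genes), CCNCNCCC (the CACC box bound by KLF1) and CCAAT, each on either strand, and TATAA on the gene's strand. Matches on the other strand appear as their complement read along the gene.
Hba-a2 (chr11:32296242-32296491, plus strand): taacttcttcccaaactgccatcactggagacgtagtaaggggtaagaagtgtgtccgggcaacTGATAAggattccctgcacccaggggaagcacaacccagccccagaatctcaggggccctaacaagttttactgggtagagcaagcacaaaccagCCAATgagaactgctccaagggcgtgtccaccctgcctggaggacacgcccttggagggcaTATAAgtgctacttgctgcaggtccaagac
Hbb-bs (chr7:103827929-103828178, minus strand): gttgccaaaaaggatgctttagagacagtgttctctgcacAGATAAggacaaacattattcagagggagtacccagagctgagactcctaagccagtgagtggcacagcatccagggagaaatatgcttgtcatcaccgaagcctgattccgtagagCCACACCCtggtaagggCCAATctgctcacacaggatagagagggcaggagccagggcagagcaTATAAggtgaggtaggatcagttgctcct
Hbb-bt (chr7:103813924-103814173, minus strand): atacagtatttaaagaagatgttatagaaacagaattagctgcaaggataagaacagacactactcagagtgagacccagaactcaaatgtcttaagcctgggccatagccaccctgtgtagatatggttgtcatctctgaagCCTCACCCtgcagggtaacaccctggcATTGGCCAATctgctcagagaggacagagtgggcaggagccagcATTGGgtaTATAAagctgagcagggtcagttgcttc
Alas2 (chrX:150547167-150547416, plus strand): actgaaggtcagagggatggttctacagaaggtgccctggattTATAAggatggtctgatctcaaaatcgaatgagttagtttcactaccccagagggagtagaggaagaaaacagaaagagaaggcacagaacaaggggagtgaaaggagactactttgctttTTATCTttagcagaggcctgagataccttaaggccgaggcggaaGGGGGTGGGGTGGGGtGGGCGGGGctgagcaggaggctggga

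The *Hba-a1* window (chr11:32283422-32283671, plus strand) matched that of *Hba-a2* at 247 of 247 bases once shifted by 3 bases. The GATA words were found in 4 of the 5 windows, all but *Hbb-bt*, and in 26.5% of 32851 RefSeq promoter windows of the same length. The CCNCNCCC word was found in 3 of the 5 (*Hbb-bs*, *Hbb-bt* and *Alas2*, the last with overlapping matches) and in 45.9% of all windows. The CCAAT word was found in the 4 globin windows and in 33.8% of all windows. TATAA began 27 to 30 bases before the start in the 4 globins, lay 207 bases before it in *Alas2*, and was found in 16.0% of all windows. These are matches of letters and not shown to be bound sites.

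Libraries held between 42744138 and 48854310 counts on genes, and 17496 genes passed edgeR's filter on low counts, including 5 of the 6 red cell genes (*Slc4a1* did not). Levels are given as counts scaled by TMM to the mean library size, called normalized counts. *Xist* and *Ddx3y* placed WT replicate 2 and DTRScxLin replicates 2 and 3 with females and the other 3 libraries with males. Skeletal muscle genes took 1.97% to 2.73% of the WT libraries and 0.363%, 2.47% and 0.684% of DTRScxLin replicates 1 to 3. *Scx* had 2658 ± 433 normalized counts in WT against 3474 ± 62.4 in DTRScxLin tendons (SD, n = 3), so *Scx* was present in every library, and *Tnmd*, another tendon marker, had between 50544 and 92273.

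Transcripts of 5 red cell genes were about 2 to 3 times as abundant in WT as in DTRScxLin tendons. WT replicate 3 was the highest library for each of these 5 genes. The differences did not pass edgeR's quasi-likelihood test after adjustment over all genes, and 4 of the 5 passed DESeq2.

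*Hba-a1*, an adult alpha globin, reached 1079, 1401 and 2519 normalized counts in the WT libraries (replicates 1 to 3, the order used throughout) and 640.4, 1046 and 630.3 in the DTRScxLin libraries. Every DTRScxLin library was below every WT library, but the highest DTRScxLin and the lowest WT library were only 1.03-fold apart. Group means were 1666 ± 756 and 772 ± 237 (SD, n = 3), 2.16-fold higher in WT, and edgeR's log2 fold change of DTRScxLin relative to WT was -1.11 (SE 0.39, adjusted p = 0.435). DESeq2 gave the same change an adjusted p of 0.0133.

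*Hba-a2*, its paralogue, had 600.2, 769.8 and 1433 normalized counts in WT against 439, 618 and 371 in DTRScxLin tendons. Here the groups overlapped, since DTRScxLin replicate 2 exceeded WT replicate 1. The means were 934 ± 440.2 and 476 ± 128 (SD, n = 3), 1.96-fold higher in WT, with a log2 fold change of -0.97 (SE 0.37, edgeR's adjusted p = 0.449, DESeq2's adjusted p = 0.0497).

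*Hbb-bs*, the more abundant adult beta globin, had 2176, 2706 and 4813 normalized counts in WT against 1204, 2038 and 1189 in DTRScxLin tendons. The groups did not overlap, and the nearest libraries were 1.07-fold apart. Its means of 3232 ± 1395 and 1477 ± 486 (SD, n = 3) were 2.19-fold apart, the log2 fold change was -1.13 (SE 0.39, edgeR's adjusted p = 0.429), and DESeq2 did not call it (adjusted p = 0.189).

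*Hbb-bt*, the less abundant beta globin, had 332, 436 and 697 normalized counts in WT against 275, 294 and 176 in DTRScxLin tendons. The groups did not overlap, with the nearest libraries 1.13-fold apart. Means were 488 ± 188 and 248 ± 63.5 (SD, n = 3), 1.97-fold higher in WT, with a log2 fold change of -0.98 (SE 0.32, edgeR's adjusted p = 0.389, DESeq2's adjusted p = 0.0420).

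*Alas2*, the red cell form of aminolevulinate synthase, which starts heme synthesis, had 225, 296 and 497 normalized counts in WT against 95.9, 164 and 109 in DTRScxLin tendons. The groups were further apart than for the globins, with the nearest libraries 1.38-fold apart. Means were 339 ± 141 and 123 ± 36.0 (SD, n = 3), 2.76-fold higher in WT, with a log2 fold change of -1.46 (SE 0.34, edgeR's adjusted p = 0.293, DESeq2's adjusted p = 0.00137).

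*Slc4a1*, which encodes band 3, the anion exchanger of the red cell membrane, was near the limit of detection, with raw counts of 6, 10 and 5 in WT and 8, 5 and 3 in DTRScxLin tendons. The groups overlapped. Summed over libraries these were 21 counts in WT (exact Poisson 95% interval 12.999 to 32.1) and 16 in DTRScxLin tendons (9.15 to 26.0), which cover counting error only. A difference was not detectable at this depth: edgeR without the filter gave a log2 fold change of -0.36 (SE 0.76, adjusted p = 0.910).

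**Figure D1:**
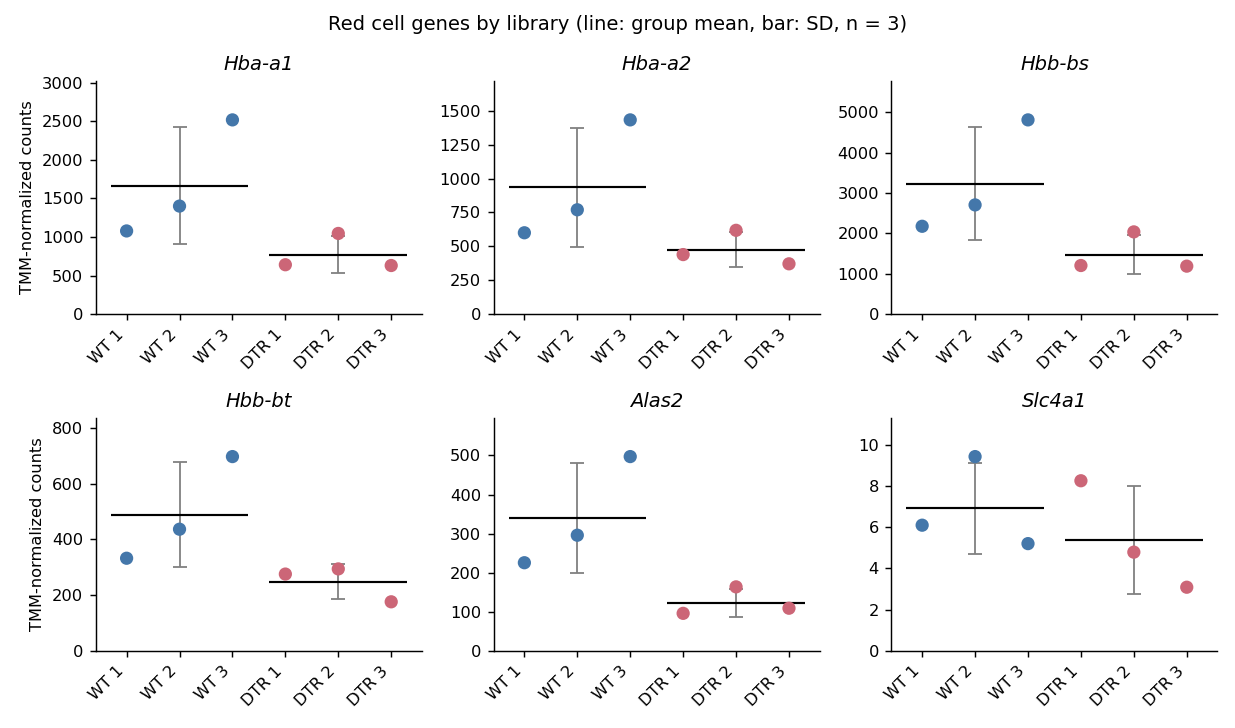
TMM-normalized counts (linear axis from 0) of the 6 genes in each of 3 WT (blue) and 3 DTRScxLin (red, labelled DTR) libraries; black lines are group means and bars the SD. WT replicate 3 is the highest library in 5 panels, and in *Slc4a1* all values lie under 10.

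Of the 5 genes tested, edgeR called 0 at an adjusted p under 0.05, as it did for all 17496 genes (0%). At an unadjusted p under 0.05, 5 of 5 were lower in DTRScxLin tendons, against 5.45% of all genes tested by edgeR. That count was 2 of 5 without the filter or with a term for sex, and 1 of 5 (*Alas2*) with the level of skeletal muscle genes as a covariate or with the replicate number as a block. It was 2 without DTRScxLin replicate 1, 1 without DTRScxLin replicate 3, 3 without WT replicate 2 or WT replicate 3, and 5 without WT replicate 1 or DTRScxLin replicate 2. DESeq2 called 4 of 5 lower, against 1.53% of the genes it tested. Normalized counts of 4 of the 5 did not overlap between groups with DTRScxLin lower, against 7.85% of all genes, and the same 4 did so on the deposited normalized counts and on counts scaled by the library total. The 5 genes are not independent of each other, because *Hba-a1*, *Hbb-bs* and *Hbb-bt* put the 6 libraries in the same order (WT 3, 2 and 1, then DTRScxLin 2, 1 and 3), and *Hba-a2* and *Alas2* each differed from it by 1 exchange of neighbours.

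Which libraries were included decided DESeq2's calls. It called 5 of the 5 without WT replicate 1 or without DTRScxLin replicate 2, and *Alas2* alone without WT replicate 2, without WT replicate 3, without DTRScxLin replicate 1 or without DTRScxLin replicate 3. Its adjusted p for *Alas2* ran from 6.05e-05 to 0.0495 over those 6 fits. Over the 17 other alternatives with edgeR or limma, the adjusted p of the 5 genes lay between 0.0570 and 0.851.

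Within each sex the direction was the same for these 5 genes, with few libraries on each side. For *Alas2* the 2 male WT libraries (225 and 497) were above the male DTRScxLin library (95.9), and the female WT library (296) was above both female DTRScxLin libraries (164 and 109). *Hba-a1* and *Hbb-bs* had the same arrangement. A term for sex in edgeR left the log2 fold changes between -1.51 (*Alas2*) and -0.90 (*Hbb-bt*).

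The 2 DTRScxLin libraries with the least muscle RNA were also those with the lowest level of each of the 4 globins and of *Alas2*, and DTRScxLin replicate 2, with a muscle share in the WT range, was the highest of its group for these 5 genes. With the muscle level as a covariate, the log2 fold changes were -0.85 for *Hba-a1*, -0.79 for *Hba-a2*, -0.84 for *Hbb-bs*, -0.92 for *Hbb-bt* and -1.20 for *Alas2*, with adjusted p between 0.759 and 0.851. Among the 3 WT libraries the order was the opposite, because replicate 3 had the lowest muscle share and the highest level of these 5 genes.

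Counts on the red cell genes were a very small part of each library. All 6 genes together took 96.3, 125.4 and 217 CPM (counts scaled to the library total) of the WT libraries and 54.8, 89.1 and 56.4 of the DTRScxLin libraries. The Wilson 95% interval was 52.7 to 57.0 for the lowest library and 213 to 222 for the highest, and intervals cover counting error only. No DTRScxLin library reached the lowest WT library, and WT replicate 3 held nearly 4 times the share of the lowest DTRScxLin library. The mean share was 146 ± 63.1 CPM in WT and 66.8 ± 19.3 CPM in DTRScxLin tendons (SD, n = 3), 2.19-fold higher in WT.

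Set against endothelial rather than all transcripts, the difference was of similar size. For each 1000 counts on a list of 22 endothelial genes, the 6 genes had 68.8, 75.2 and 121 counts in WT and 38.8, 61.6 and 33.7 in DTRScxLin tendons. The groups again did not overlap, and the means of 88.2 ± 28.3 and 44.7 ± 14.9 (SD, n = 3) were 1.97-fold apart. The endothelial list itself took 0.140% to 0.180% of WT and 0.141% to 0.167% of DTRScxLin libraries.

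Per kb of transcript, *Hbb-bs* was the most abundant, with a mean level of 5146 ± 2221 normalized counts per kb in WT and 2352 ± 774 in DTRScxLin tendons (SD, n = 3). *Hba-a1* followed with 2384 ± 1081 and 1105 ± 339, and *Hba-a2* with 1687 ± 795 and 859.7 ± 230.4. *Hbb-bt* had 695 ± 267 and 353 ± 90.3. The remaining levels per kb were 167 ± 69.2 and 60.3 ± 17.6 for *Alas2*, and 1.52 ± 0.49 and 1.18 ± 0.58 for *Slc4a1*. This order held within each of the 6 libraries, although the group ranges of *Hba-a1* and *Hba-a2* overlapped because the libraries differed more than the genes did. Globins made up 94.6% to 96.1% of the counts on the 6 genes.

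Ratios between these genes within a library do not depend on how the libraries were scaled. With 3 libraries against 3, the exact two-sided permutation test cannot give a p below 0.1, and p-values were adjusted over the 5 ratios computed.

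Alpha to beta globin counts stood at 66.9%, 69.1% and 71.7% in WT and 73.0%, 71.4% and 73.4% in DTRScxLin tendons. The ratio thus varied by only 1.10-fold over libraries whose globin levels differed by about 4-fold, and the groups overlapped (exact permutation p = 0.2, adjusted p = 0.333).

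*Alas2* to summed globin counts stood at 5.38%, 5.57% and 5.25% in WT and 3.75%, 4.10% and 4.61% in DTRScxLin tendons. Every DTRScxLin library was below every WT library, with a difference in mean log2 ratio of -0.39 (exact permutation p = 0.1, the smallest possible, adjusted p = 0.25). *Alas2* was thus lower in DTRScxLin tendons relative to globin as well as relative to all genes, in 3 of 3 libraries, without passing the adjusted test.

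Between paralogues, counts of *Hba-a2* relative to *Hba-a1* were 55.6%, 54.9% and 56.9% in WT and 68.6%, 59.1% and 58.9% in DTRScxLin tendons. The groups did not overlap (difference in mean log2 ratio 0.15, exact permutation p = 0.1, adjusted p = 0.25), and the difference was 0.080 without DTRScxLin replicate 1. *Hbb-bt* relative to *Hbb-bs* was 15.3%, 16.1% and 14.5% in WT and 22.9%, 14.4% and 14.8% in DTRScxLin tendons, and the groups overlapped (exact permutation p = 0.9, adjusted p = 0.9). DTRScxLin replicate 1 had the highest value of both paralogue ratios, and without it the difference in the beta ratio changed sign, from 0.15 to -0.064 on the log2 scale. Since the sequences above leave most stretches of each coding sequence shared, the counts cannot tell a shift between paralogues from a shift in how shared reads were assigned.

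*Slc4a1* relative to summed globin was 0.146%, 0.177% and 0.0550% in WT and 0.322%, 0.120% and 0.130% in DTRScxLin tendons. The groups overlapped (exact permutation p = 0.6, adjusted p = 0.75), and each value rests on 10 counts or fewer of *Slc4a1*.

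**Figure D2:**
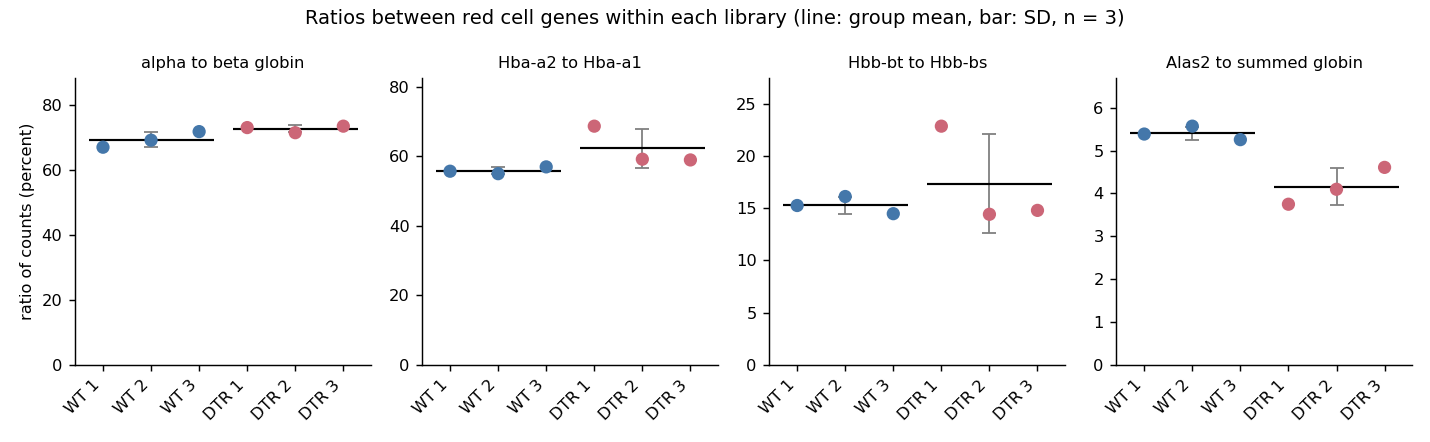
Ratios of raw counts (percent, linear axes from 0) between red cell genes in each of 3 WT (blue) and 3 DTRScxLin (red, labelled DTR) libraries, with group means as lines and the SD as bars. Alpha to beta globin lies between 66.9% and 73.4% in all libraries, *Alas2* to globin is lower in every DTRScxLin library, and DTRScxLin replicate 1 is the highest in both paralogue ratios.

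The embryonic globins *Hba-x*, *Hbb-y*, *Hbb-bh0*, *Hbb-bh1*, *Hbb-bh2* and *Hbb-bh3* had no count in any library, and the theta globins *Hbq1a* and *Hbq1b* had 2 counts each, in 1 DTRScxLin library each. The globins of other tissues differed in their pattern from the adult ones. *Mb*, the myoglobin of muscle, had 61752, 64096 and 44516 normalized counts in WT against 5132, 52065 and 7833 in DTRScxLin tendons, with a log2 fold change of -1.39 (SE 1.00, edgeR's adjusted p = 0.636). Its levels set DTRScxLin replicate 2 beside the WT libraries, and WT replicate 3 was the lowest of its group, unlike for the hemoglobin genes. *Cygb*, the cytoglobin of fibroblasts and other cells, had a log2 fold change of -0.048 (SE 0.15, edgeR's adjusted p = 0.928), and that of *Ngb*, the neuroglobin, was -0.18 (SE 0.54, edgeR's adjusted p = 0.929).

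Other genes of the red cell lineage were mostly close to 0 or shared with other cell types. *Epb42*, a protein of the membrane skeleton, had 8 counts in all WT and 2 in all DTRScxLin libraries, and *Gata1* had 9 and 2. *Klf1*, the factor that binds the CACC box of the beta globin promoter, had 9 and 18. The Rh-associated glycoprotein *Rhag* and *Kel* had none. So these markers of red cell precursors were at or near 0 while *Hbb-bs* alone had up to 4628.

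Among 18 genes of heme synthesis, which includes the housekeeping enzymes of all cells, 14 were lower and 4 higher in DTRScxLin tendons, none was called by edgeR or DESeq2, and the median log2 fold change was -0.062, beside 0.0082 over all genes tested. Of all genes tested by edgeR, 48.5% were lower, which is the share to set beside the counts of lower genes in this and the following lists. *Alas1*, the form of the first enzyme used outside red cells, had 1904, 2029 and 1917 normalized counts in WT against 1792, 2009 and 1782 in DTRScxLin tendons (log2 fold change -0.067, SE 0.084, edgeR's adjusted p = 0.791), so the groups overlapped. *Fech*, which inserts the iron and is used by all cells, had a log2 fold change of -0.044. These stand beside the -1.46 of *Alas2* on the same log2 scale, and the difference between the genes was not tested.

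Of 15 tested genes of the red cell membrane and cytoskeleton, 11 were lower and 4 higher (median -0.17). DESeq2 called 1 of them, *Add2*, an adducin, and called it higher in DTRScxLin tendons, as it did 1.12% of the genes it tested: 38.6, 52.8 and 67.6 normalized counts in WT against 133, 115 and 129.6 in DTRScxLin tendons (log2 fold change 1.25, SE 0.28, edgeR's adjusted p = 0.274, DESeq2's adjusted p = 0.00603). Of the 15 genes, 3 had every DTRScxLin library below every WT library (*Epb41*, *Sptb* and *Tspan33*), against 7.85% of all genes, and 1 (*Add2*) had every one above, against 8.96% of all genes. Several of this list are muscle proteins too, among them *Sptb*, a beta spectrin, with a log2 fold change of -1.74 (SE 0.66, edgeR's adjusted p = 0.453), and *Ank1*, an ankyrin, with -0.68 (SE 0.67, edgeR's adjusted p = 0.736). Both were lowest in DTRScxLin replicates 1 and 3, the libraries with the least muscle RNA, and the part of muscle in their difference was not tested.

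Of 13 tested genes for red cell enzymes and late maturation, 8 were lower and 5 higher (median -0.036). DESeq2 called *Car2*, a carbonic anhydrase of red cells and other tissues, which had 626, 829 and 205 normalized counts in WT against 127, 218 and 139.8 in DTRScxLin tendons (log2 fold change -1.77, SE 0.54, edgeR's adjusted p = 0.389, DESeq2's adjusted p = 0.00199). WT replicate 3, the highest for globins, was the lowest WT library for *Car2*, and the groups overlapped.

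Of 10 tested transcription factors and receptors of the red cell lineage, 8 were lower and 2 higher (median -0.21). The erythropoietin receptor *Epor* had 31.9 to 40.5 normalized counts in 5 libraries and 22.7 in DTRScxLin replicate 1 (log2 fold change -0.29, SE 0.31, edgeR's adjusted p = 0.749). The stem cell factor receptor *Kit*, also found on mast cells, had a log2 fold change of -0.64 (SE 0.18, edgeR's adjusted p = 0.347, DESeq2's adjusted p = 0.0472). *Tfrc*, the transferrin receptor that brings iron into cells, had a log2 fold change of -0.29 (SE 0.32, edgeR's adjusted p = 0.768).

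**Figure D3:**
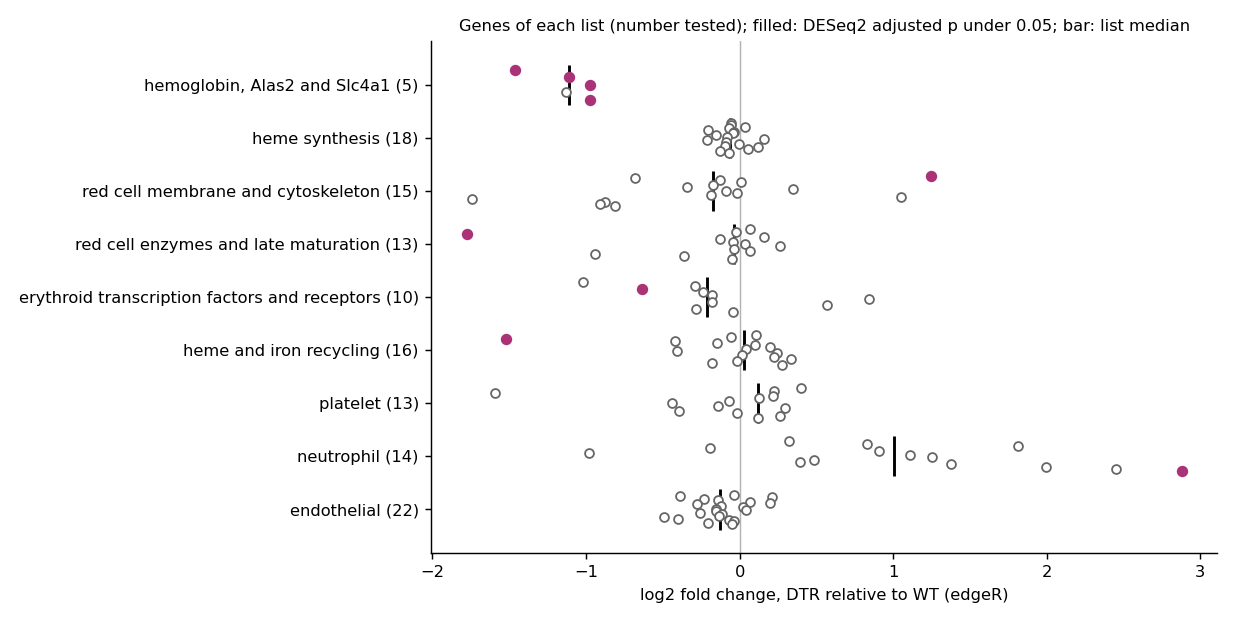
edgeR log2 fold change of DTRScxLin relative to WT (horizontal axis, log2 scale) for each tested gene of 9 lists, with the number tested in brackets, list medians as bars and genes at a DESeq2 adjusted p under 0.05 filled. The 5 tested hemoglobin and red cell genes lie between -1.46 and -0.97, whereas the medians of the other red cell lists lie between -0.21 and -0.036.

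Genes that clear hemoglobin and recycle heme and iron were split, with 9 of 16 tested higher and 7 lower in DTRScxLin tendons (median 0.029). *Cd163*, the macrophage receptor that takes up hemoglobin bound to haptoglobin, was the one called by DESeq2 (adjusted p = 2.70e-06). It had 2515, 2715 and 2124 normalized counts in WT against 489.8, 1124 and 945 in DTRScxLin tendons (log2 fold change -1.52, SE 0.31, edgeR's adjusted p = 0.293). The groups did not overlap and were further apart than for the globins, and WT replicate 3 was the lowest WT library, so the order of libraries differed from that of globin.

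*Hmox1*, the oxygenase that breaks down heme, had 6199, 6189 and 4728 normalized counts in WT against 8943, 5182 and 5481 in DTRScxLin tendons, with overlap (log2 fold change 0.20, SE 0.23, edgeR's adjusted p = 0.782). *Slc40a1*, the iron exporter ferroportin, had 5063, 3724 and 2658 in WT and 7335, 2600 and 4476 in DTRScxLin tendons, again with overlap (log2 fold change 0.33, SE 0.45, edgeR's adjusted p = 0.820). DTRScxLin replicate 1 was the highest library for both, and also for *Hp* (haptoglobin), with 4650 against at most 3034 elsewhere.

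By their summed counts, the lists for other cells that blood carries ordered the libraries differently from the hemoglobin genes. A platelet list took 0.0548% to 0.0632% of WT and 0.0595% to 0.0695% of DTRScxLin libraries, with 7 of 13 tested genes higher and 6 lower in DTRScxLin tendons and none called. Its median log2 fold change was 0.12, and it turned negative under DESeq2 (-0.14), without the filter (-0.14), on the deposited normalized counts (-0.15) and with the muscle covariate (-0.022). *Pf4*, a chemokine of platelet granules that macrophages can also express, had a log2 fold change of -0.14. *Gp9*, a platelet membrane glycoprotein, had at most 5 counts in a library.

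A neutrophil list took 0.00354% to 0.0102% of WT and 0.00576% to 0.0374% of DTRScxLin libraries, with 12 of 14 tested genes higher in DTRScxLin tendons (median log2 fold change 1.01). DTRScxLin replicate 1 held the high value: *S100a9*, a calcium-binding protein of neutrophils, had 5436 normalized counts there, 783 and 309 in the other DTRScxLin libraries, and 563, 486 and 145 in WT. This library was among the lowest for the hemoglobin genes. DESeq2 called 1 gene of the list (*Stfa2l1*, higher) and edgeR none. The median was 0.067 without DTRScxLin replicate 1 and -0.022 with the muscle covariate.

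Among lymphoid and monocyte lists, 10 of 13 B and plasma cell genes were lower (median -0.35), 9 of 17 T and NK cell genes were higher (median 0.087), and 10 of 15 blood monocyte genes were higher (median 0.18), with none called by either tool. With 1 library left out, these medians ran from -0.53 to -0.17 for B and plasma cells, from -0.16 (without WT replicate 3) to 0.50 (without WT replicate 1) for T and NK cells, and from -0.11 (without DTRScxLin replicate 1) to 0.37 (without WT replicate 1) for monocytes. The T and NK cell median was also negative without WT replicate 2 and without DTRScxLin replicate 1, and the monocyte median without WT replicate 3. With the muscle covariate they were -0.17 for T and NK cells and -0.078 for monocytes. Of the 13 B and plasma cell genes, 1 (*Ms4a1*) had every DTRScxLin library below every WT library, against 7.85% of all genes. It had 18.3, 19.8 and 18.7 normalized counts in WT against 7.22, 5.74 and 9.25 in DTRScxLin tendons. *Ebf1*, the most abundant gene of that list, weighed most in its summed counts and was higher (log2 fold change 0.50, SE 0.22, edgeR's adjusted p = 0.473). Of 10 tested genes of bone marrow progenitors, 6 were higher and 4 lower. DESeq2 called *Cdk6* higher and *Kit* lower. Of 22 endothelial genes, 17 were lower and 5 higher (median -0.13) with none called, and *Pecam1*, the junction protein of vessel walls, had a log2 fold change of -0.15 (SE 0.13, edgeR's adjusted p = 0.667).

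**Figure D4:**
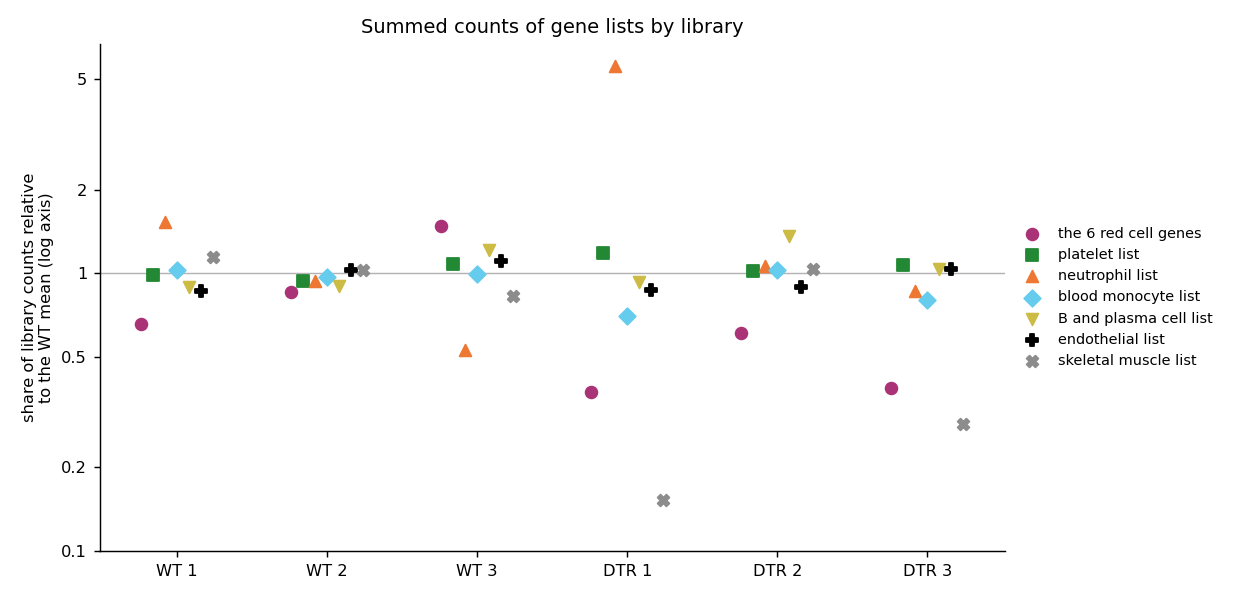
Share of library counts on the 6 red cell genes and on 6 lists of other cell types in each library, relative to the WT mean (log axis, 1 point per list and library, DTRScxLin labelled DTR). The red cell genes lie below 1 in every DTRScxLin library, the endothelial and platelet lists stay near 1, and the neutrophil point of DTRScxLin replicate 1 and the muscle points of DTRScxLin replicates 1 and 3 lie far from it.

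Genes of the neighbouring tissues also differed in level between the groups. All 24 skeletal muscle genes were lower in DTRScxLin tendons (median log2 fold change -1.13), as were all 19 keratinocyte genes tested (median -3.51), while 12 of 15 tendon genes were higher (median 0.32). The muscle median was -0.72 without DTRScxLin replicate 1, -0.82 without DTRScxLin replicate 3 and -2.27 without DTRScxLin replicate 2, the keratinocyte median -8.24 without DTRScxLin replicate 3 (-4.09 to -2.64 with each other library left out in turn), and the tendon median 0.20 without DTRScxLin replicate 1. edgeR called none of these with all libraries. DESeq2 called 1 keratinocyte gene (*Sbsn*, lower) and 3 tendon genes (*Thbs4*, *Egr2* and *Lox*, higher). Of all genes DESeq2 tested, it called 1.53% lower and 1.12% higher. By direction alone, 48.5% of all genes tested by edgeR were lower in DTRScxLin tendons. The keratinocyte share was 0.0113% in WT replicate 3, the library highest in hemoglobin, and 0.535% and 0.358% in the other WT libraries. In DTRScxLin replicates 1 to 3 this share was 0.00497%, 0.00770% and 0.0555%. The groups thus overlapped, with DTRScxLin replicate 3 above WT replicate 3.

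The genes whose profile over the 6 libraries was most like the mean profile of the 5 tested red cell genes were *Plpp3* (Pearson r 0.990), *Enkur* (0.984), *Acss3* (0.979), *Enpp2* (0.978), *Hepacam2* (0.977), *Kcne4* (0.976), *Mrpl14* (0.975) and *Odf3l1* (0.974), out of 14405 genes ranked with at least 50 normalized counts on average. Spearman's rho was 1 for *Enpp2* and 0.943 for the other 7. With 6 libraries and this many genes, high coefficients arise for many profiles, and they are given as a description. These genes varied much less than the globins, with an SD of log2 CPM over the libraries of 0.13 to 0.47 against 0.67 to 0.89 for the red cell genes, and their log2 fold changes lay between -0.78 and -0.20. None of the 8 was in the lists of red cell, platelet or leukocyte genes.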

How the data were processed

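RNA of 6 FDL tendons (200 ng total RNA each, poly(A) selected) was sequenced by the authors with single-end reads. The authors cleaned the reads and used featureCounts. The deposited counts are whole numbers, not normalized. The deposited normalized counts (a signal table) equal these counts divided by the DESeq2 size factor of each library. Aligner, genome build, annotation and strand setting are not given in the sources used here, and neither is the treatment of reads that match both paralogues. The labels name DESeq2 1.22.1, a stranded kit and also a SMARTER kit. Groups came from the genotype label.

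The main test, in R 4.3.3, was that of edgeR 4.0.16 (TMM, filterByExpr, robust quasi-likelihood test, genotype as the term, Benjamini-Hochberg over 17496 genes, threshold 0.05). Standard errors are the size of the log2 fold change over the root of F. DESeq2 1.42.0 and limma 3.58.1 served as alternatives. Ratios were tested with SciPy 1.17.1. The members and the 16 other gene lists were chosen with earlier results of these data known. Named genes were the 6 genes, genes of each list called or among its most abundant, the 8 nearest by profile, and further list genes chosen after their values were seen. A few list genes are not reported here by name. The scripts were tested on simulated data. Replicate libraries differed far beyond sampling noise (chi-square per degree of freedom 36.6 to 189.8), so none was counted as a duplicate. Shallow depth did not limit the globins, but it limited genes under about 10 counts.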

Additional observations from a re-analysis of the deposited data

How the results depend on the processing

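The log2 fold changes of *Hba-a1*, *Hba-a2*, *Hbb-bs*, *Hbb-bt* and *Alas2* were negative under every alternative run. DESeq2 brought 4 past the threshold (*Hba-a1* -1.11, *Hba-a2* -0.97, *Hbb-bt* -0.97, *Alas2* -1.46) and so called 4 of these genes, 466 genes in all and 10 in the lists. edgeR called 0 genes with all libraries, 83 without the filter, and 0 to 544 with a library left out, the 544 without DTRScxLin replicate 2. Over the lists this range was 0 to 22. With a library left out, the ranges were -1.39 to -0.68 for *Hba-a1*, -1.21 to -0.53 for *Hba-a2*, -1.43 to -0.73 for *Hbb-bs*, -1.19 to -0.63 for *Hbb-bt*, -1.73 to -1.09 for *Alas2*, and -1.34 to -0.76 for the log2 difference in their share. The ratio of *Hbb-bt* to *Hbb-bs* ranged from -0.064 to 0.27 and turned negative (-0.064) without DTRScxLin replicate 1. That of *Hba-a2* to *Hba-a1* ranged from 0.080 to 0.19, lowest without the same library. The cause was not tested.

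Between libraries of the same replicate number, the correlations of deviations from the group mean were -0.19, -0.15 and -0.68. None was positive, so they gave no sign that the numbers pair the samples. With 3 libraries a group they cannot settle whether pairing is absent. With a replicate block, edgeR called 1 gene and the log2 fold changes were -1.05, -0.89, -1.09, -0.93 and -1.42 for *Hba-a1*, *Hba-a2*, *Hbb-bs*, *Hbb-bt* and *Alas2*. With the paralogues summed, they were -1.06 for alpha and -1.11 for beta globin. With 3 animals a group, the spread between WT libraries limits these comparisons.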
